A study of Homo sapiens with 2 samples.

Results

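The RUNX transcription factors, their shared partner subunit and the co-repressors that they recruit were followed in Ca9-22 cells, an established line from a carcinoma of the gingiva, with and without a vector for RUNX2. The set held 10 genes, and 19775 genes in all had a probe set of their own on the array. The members were RUNX1, RUNX2 and RUNX3, the subunit CBFB, the ETO family genes RUNX1T1, CBFA2T2 and CBFA2T3, the Groucho-type co-repressors TLE1 and TLE3, and the deacetylase HDAC4. They were chosen by name, and every probe set that the platform annotation assigned to 1 of them alone was taken, 36 in all for 9 genes. RUNX1 had none of its own, and 13 probe sets whose annotation gave RUNX1 with 2 non-coding genes were kept apart.

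The arrays compared cells stably transduced with a RUNX2 vector with cells stably transduced with an empty vector. Both populations had been selected with blasticidin, and total RNA was hybridised to 1 Affymetrix array per group. The question was how transcripts of the family differ when cells carry the RUNX2 vector in place of the empty one. There were no replicates. The groups were therefore compared without a test or p-value, and precision is limited by having 1 array in each. The labels do not name the promoter or the RUNX2 isoform of the vector.

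RUNX proteins bind DNA through the runt domain, and CBFB, which does not bind DNA itself, raises their affinity. RUNX2 directs osteoblast differentiation, RUNX1 is required for blood formation, and RUNX3 acts in T cells, sensory neurons and epithelia. Each RUNX gene is transcribed from a distal and a proximal promoter. At many targets RUNX proteins repress rather than activate, through Groucho-type TLE proteins that bind their C-terminal end and through histone deacetylases.

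Because RUNX genes can carry RUNX motifs in their own promoters, the promoter windows of RUNX2 and the distal window of RUNX3 are shown. They run from 250 bases before to 30 bases after an annotated start, in RefSeq for GRCh38.p14, and are written 5′ to 3′ on the gene's strand. Capitals mark the RUNX core motif, searched as TGTGGT and TGCGGT and, for the other strand, as ACCACA and ACCGCA, with overlapping matches allowed.
RUNX2 distal start, chr6:45328080-45328359, plus strand: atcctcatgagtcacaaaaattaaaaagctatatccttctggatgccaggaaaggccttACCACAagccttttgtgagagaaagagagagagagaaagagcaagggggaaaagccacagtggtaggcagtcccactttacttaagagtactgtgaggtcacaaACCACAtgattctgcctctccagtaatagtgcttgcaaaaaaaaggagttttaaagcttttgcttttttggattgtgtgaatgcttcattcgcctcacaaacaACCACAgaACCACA
RUNX2 proximal start, chr6:45422025-45422304, plus strand: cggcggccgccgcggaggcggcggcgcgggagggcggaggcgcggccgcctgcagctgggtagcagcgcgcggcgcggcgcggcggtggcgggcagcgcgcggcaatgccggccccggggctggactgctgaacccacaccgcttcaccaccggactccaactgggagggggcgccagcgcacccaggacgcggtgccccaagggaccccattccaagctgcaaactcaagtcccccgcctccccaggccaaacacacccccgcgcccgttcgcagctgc
RUNX3 distal start, chr1:24964981-24965260, minus strand: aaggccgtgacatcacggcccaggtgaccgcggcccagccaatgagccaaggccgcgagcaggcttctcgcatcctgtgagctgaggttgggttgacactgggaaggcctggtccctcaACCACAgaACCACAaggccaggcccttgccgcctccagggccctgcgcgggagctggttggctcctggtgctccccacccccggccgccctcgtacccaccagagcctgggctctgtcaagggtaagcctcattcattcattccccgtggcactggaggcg

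In the full windows of 300 bases, which end 50 bases after the start, the distal RUNX2 window held 5 matches. They began at positions -191, -87, 17, 25 and 33 from the start, and the match at 33 lies beyond the printed stretch. The proximal RUNX2 window, 93945 bases downstream, held 0. The distal RUNX3 window held 2 matches, at -131 and -123, and the proximal RUNX3 window, 34734 bases downstream, held 0. Of 35116 promoter windows in the same table, 19.6% held at least 1 match, 2.32% at least 2, and 4 windows at least 5. Of the 16 windows listed for 8 of the 10 genes, 4 held a match, and the other 2 of those 4 were windows of TLE3 and HDAC4. These matches are descriptions of the letters and not of binding.

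Levels are given as intensities in arbitrary units, with the RUNX2 vector array scaled to the empty vector array. Each array's median served as its floor, 51.8 on the RUNX2 vector array and 55.3 on the empty vector array, and probe sets above the floor on either array are called measured. Where one of the arrays lay below its floor, the floor took the place of that value, which makes the ratio a bound ("at least"). Of the 36 probe sets, 23 were measured, 21 of them above the floor on both arrays. They covered 7 of the 10 genes, and for each of these genes the brightest measured probe set, by mean log2 level, represents the gene. The measured probe sets of all genes together, 23332, represented 12729 genes. Log2 values correlated between the arrays with r = 0.968 over all non-control probe sets above both floors, whatever their annotation. Probe sets are not independent replicates.

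**Figure D1:**
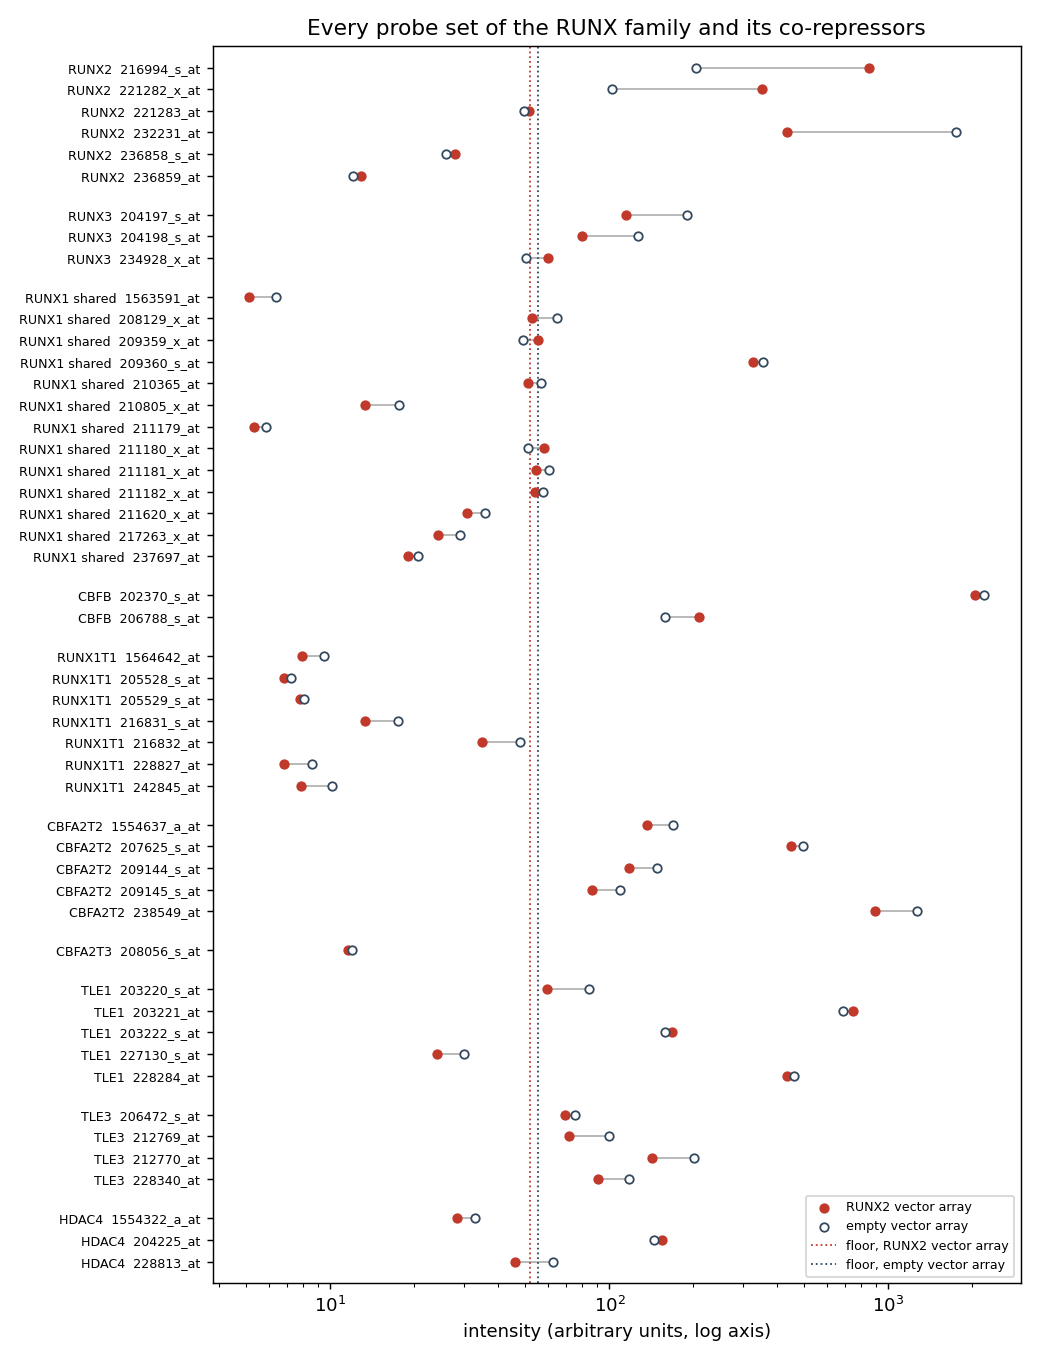
Intensity of every probe set (rows) in arbitrary units on a log axis, with filled points for the RUNX2 vector array, open points for the empty vector array and dotted lines for the floors of both. Wide gaps in opposite directions are seen within RUNX2, and levels of different probe sets cannot be set against each other.

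RUNX2 itself was read by 6 probe sets, and these did not agree in direction. The level of 216994_s_at was 854 on the RUNX2 vector array and 204 on the empty vector array, 4.17-fold higher. The level of 221282_x_at was 353 on the RUNX2 vector array and 102 on the empty vector array, 3.47-fold higher. The suffix _s_at marks probes shared by several transcripts, and _x_at marks probes that can also match other sequences. The remaining measured probe set, 232231_at, was at 433 on the RUNX2 vector array and 1746 on the empty vector array, 4.03-fold lower. Thus, of the 3 measured probe sets, 2 passed 2-fold upwards and 1 downwards with the RUNX2 vector, beside 1.64% and 1.12% of all 23332 measured probe sets.

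Each of these ratios lay near an end of the distribution over all measured probe sets. A log2 ratio as high as the 2.06 of 216994_s_at was found in 27 of 23332 probe sets, itself included, and one as high as the 1.79 of 221282_x_at in 49. A ratio as low as the -2.01 of 232231_at was found in 16. The other 3 RUNX2 probe sets were below the floor on both arrays and show no difference that could be read. Levels of 221283_at, 236858_s_at and 236859_at were 51.3, 28.0 and 12.8 on the RUNX2 vector array, and 49.6, 26.0 and 12.1 on the empty vector array. Across 5 ways of scaling the arrays, the log2 ratio ranged from 2.04 to 2.15 for 216994_s_at, from 1.79 to 1.89 for 221282_x_at and from -2.02 to -1.92 for 232231_at.

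The range between the highest and the lowest RUNX2 probe set was 4.07 on the log2 scale. No other of the 6165 genes that had several measured probe sets showed a wider one, and the next was RPL37, a ribosomal protein gene, with 2.66. Only 4 of these genes (0.0649%) had one probe set at least 2-fold higher and another at least 2-fold lower, namely RUNX2, CHEK1, ALG13 and SRSF1. Pooled over all such genes, the SD of log2 ratios within a gene was 0.293, which is a spread within the arrays and not a replicate error. The position of each probe set within the RUNX2 transcripts was not used here. The transcript that the vector supplies and the transcripts of the cells' own gene can therefore not be told apart, and the directions given for the other genes rest on the labels of the arrays.

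**Figure D2:**
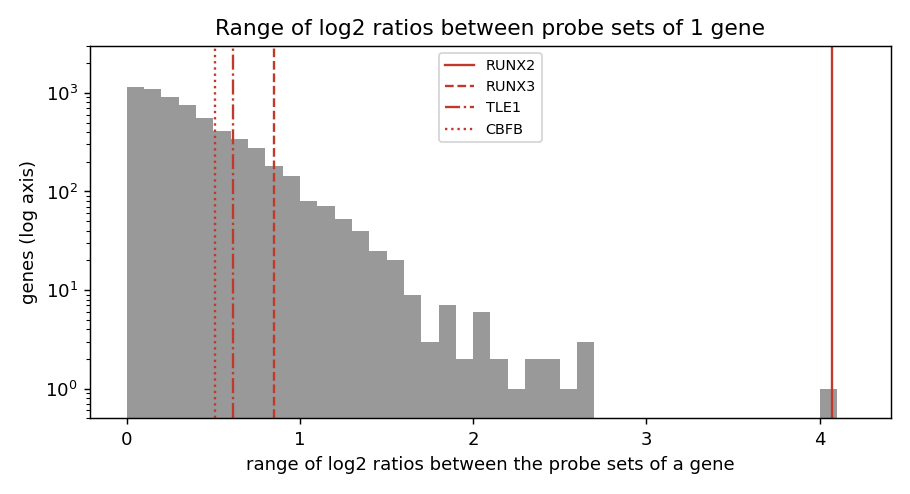
Number of genes (log axis) by the range of log2 ratios between their measured probe sets, for 6165 genes with at least 2. RUNX2 lies alone at 4.07, whereas RUNX3, TLE1 and CBFB lie lower, at 0.85, 0.61 and 0.51.

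RUNX3 was lower in the 2 of its 3 probe sets whose levels exceeded both floors. The level of 204197_s_at was 115 on the RUNX2 vector array and 190 on the empty vector array, 1.66-fold lower, with a log2 ratio of -0.73. For 204198_s_at it was 79.7 on the RUNX2 vector array and 126 on the empty vector array, 1.59-fold lower (-0.67). Neither passed 2-fold, and a log2 ratio as low as the first was found in 785 of 23332 measured probe sets. Both levels were low, and under a floor raised to the 75th percentile RUNX3 was no longer measured. The remaining probe set, 234928_x_at, went the other way near the floor, at 60.2 on the RUNX2 vector array and 50.4 on the empty vector array, at least 1.09-fold higher.

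RUNX1 could be read only through the 13 shared probe sets, in which its transcripts and those of LOC101928269 and LOC100506403 cannot be told apart. The brightest, 209360_s_at, was at 327 on the RUNX2 vector array and 354 on the empty vector array, a log2 ratio of -0.11. The other 6 that were measured lay between 51.0 and 58.1 on the RUNX2 vector array and between 48.9 and 64.7 on the empty vector array, close to the floor on both. Ratios of the 7 measured probe sets ran from -0.30 to 0.07, so none came near 2-fold. A transcript from within the gene, RUNX1-IT1, was at 149 on the RUNX2 vector array and 223 on the empty vector array, with a log2 ratio of -0.58.

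CBFB, the partner subunit of all RUNX proteins, differed little. Its probe set 202370_s_at was at 2049 on the RUNX2 vector array and 2196 on the empty vector array, a log2 ratio of -0.10. The other, 206788_s_at, was at 210 on the RUNX2 vector array and 158 on the empty vector array, 1.33-fold higher (0.41). The pair thus lay on opposite sides of 0, under each of the 5 scalings, and within 1.5-fold.

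The ETO family proteins are nuclear co-repressors that link DNA-binding factors to NCOR and histone deacetylases. RUNX1T1, the ETO gene that is fused to RUNX1 in acute myeloid leukaemia, was below the floor on both arrays in all 7 of its probe sets. Their levels ran from 6.82 to 35.0 on the RUNX2 vector array and from 7.23 to 47.9 on the empty vector array. CBFA2T3, a family member known from blood progenitors, was below the floor as well, at 11.5 on the scaled RUNX2 vector array and 11.9 on the empty vector array. Its deposited values were equal in every digit on both arrays, as were those of 1 RUNX1T1 probe set and of 1447 probe sets in all, so no difference could be read from them.

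CBFA2T2, the ETO family member of broad expression, was the one measured here, and all 5 of its probe sets were lower with the RUNX2 vector. The level of 238549_at was 894 on the RUNX2 vector array and 1268 on the empty vector array, 1.42-fold lower, with a log2 ratio of -0.50. The other 4 had ratios of -0.34, -0.33, -0.31 and -0.14, the last of these in 207625_s_at, at 447 on the RUNX2 vector array and 493 on the empty vector array. None passed 2-fold. Among 262 genes with 5 measured probe sets, 15.6% had all of them below 0.

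The TLE proteins are the human counterparts of Drosophila Groucho and serve RUNX, HES and TCF/LEF factors alike. TLE3 was lower in all 4 of its probe sets. The level of 212770_at was 142 on the RUNX2 vector array and 202 on the empty vector array, 1.42-fold lower (-0.51). The probe sets 212769_at, 228340_at and 206472_s_at had log2 ratios of -0.48, -0.37 and -0.12, at 71.4, 91.0 and 69.2 on the RUNX2 vector array, and 99.8, 117 and 75.1 on the empty vector array. Of 664 genes with 4 measured probe sets, 21.2% had all of them below 0, and under a floor raised to the 75th percentile the log2 ratio of TLE3 was a bound of -0.0050.

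TLE1 did not share a direction among its 4 measured probe sets. Its brightest, 203221_at, was at 745 on the RUNX2 vector array and 686 on the empty vector array, a log2 ratio of 0.12. The next, 228284_at, was at 432 on the RUNX2 vector array and 459 on the empty vector array (-0.09), with a sign that depended on the scaling. The level of 203222_s_at was 168 on the RUNX2 vector array and 158 on the empty vector array (0.08). The dimmest measured, 203220_s_at, was at 59.9 on the RUNX2 vector array and 84.3 on the empty vector array (-0.49). The ratios therefore spread about 0 without a wide difference, and a further probe set was below the floor, at 24.1 on the RUNX2 vector array and 30.1 on the empty vector array.

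HDAC4, a class IIa deacetylase that binds RUNX2 and holds back its activity in cartilage in mice, was nearly level. Its probe set 204225_at was at 154 on the RUNX2 vector array and 144 on the empty vector array, a log2 ratio of 0.10. A dimmer one, 228813_at, was at 46.0 on the RUNX2 vector array and 62.6 on the empty vector array, at least 1.21-fold lower, and a further one was below the floor, at 28.5 on the RUNX2 vector array and 33.0 on the empty vector array. Its antisense transcript HDAC4-AS1 was at 46.8 on the RUNX2 vector array and 106 on the empty vector array, at least 2.04-fold lower. With the arrays scaled to equal medians that bound was -0.91 on the log2 scale, within 2-fold.

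**Figure D3:**
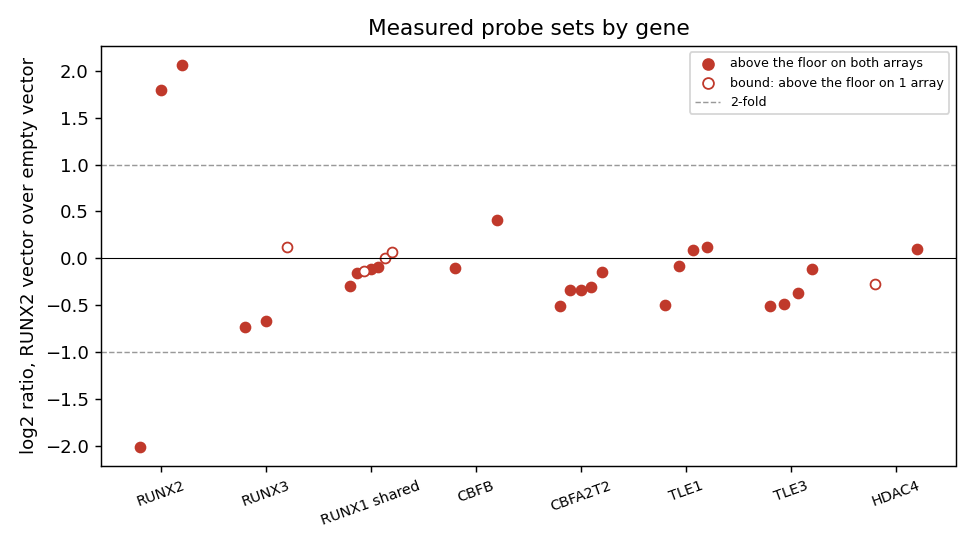
Log2 ratio of RUNX2 vector over empty vector (vertical axis) for each measured probe set, by gene, with open points for bounds and dashed lines at 2-fold. The 3 RUNX2 probe sets lie beyond 2-fold, 2 upwards and 1 downwards, and all others lie between -0.73 and 0.41.

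Taking each gene by its brightest probe set, 0 of the 7 measured genes were at least 2-fold higher and 1, RUNX2 through 232231_at, was at least 2-fold lower. Over all 12729 measured genes, 1.42% passed 2-fold upwards and 1.47% downwards (181 and 187 genes). With equal medians this split was 230 and 137. The median log2 ratio of the 7 genes was -0.50, beside -0.06 over all measured genes, and without RUNX2 it was -0.30. The median depends on 232231_at standing for RUNX2, since it was -0.10 with either of the other 2 RUNX2 probe sets in its place. Leaving out RUNX2, 15 of 20 measured probe sets lay below 0, beside 54.3% of all measured probe sets. These 15 are not separate genes, since they included all 5 of CBFA2T2 and all 4 of TLE3, as well as the HDAC4 bound. By gene, 5 of the 7 lay below 0, with RUNX2 read through 232231_at, beside 7300 of all 12729.

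The proteins that work with the family were followed in 6 lists, none of which contains the 10 genes. The list of other co-repressors had 13 measured genes of 15, with 0 past 2-fold in either direction, and a median log2 ratio of 0.06. HDAC6, a largely cytoplasmic deacetylase, had -0.42, with -0.09 in its other probe set, and EZH2, the methyltransferase of Polycomb repressive complexes, had 0.40. HDAC1, the deacetylase of the SIN3 and NuRD complexes, had 0.28, and TLE2, a further Groucho-type protein, had -0.22, with a bound of -0.27 in its other probe set. SIN3A, a scaffold for deacetylases, had -0.18 in its brightest probe set but 1.02 and 0.62 in its others, and was singled out after its values were seen.

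Among co-activators, 9 of 10 genes were measured, 0 passed 2-fold either way, and the median was 0.08. The acetyltransferase KAT2B had 0.73, at 239 on the RUNX2 vector array and 144 on the empty vector array. YAP1, the Hippo pathway co-activator that binds RUNX2, had 0.45 in its brightest probe set, 0.42 in the next and 1.14 in 213342_at, at 304 on the RUNX2 vector array and 138 on the empty vector array. All 3 YAP1 probe sets were thus higher, by unequal amounts, and the share of all genes with such a count was not computed. KAT6A, an acetyltransferase that binds RUNX1, had -0.44 and -0.24, and EP300 had 0.32 and 0.10, in their brightest and other probe sets.

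Among enzymes that modify RUNX proteins or set their turnover, 12 of 14 genes were measured, 0 passed 2-fold, and the median was 0.11. Cyclin D1, CCND1, had 0.68 in its brightest probe set, at 924 on the RUNX2 vector array and 576 on the empty vector array, and 1.10 in the other. Its kinase CDK6 had 0.66, and all 5 of its probe sets were higher. The kinase HIPK2 had -0.54 and was lower in all 9 of its measured probe sets, with a bound in 240294_at. Probe sets of the same gene are not replicates, and the shares of all genes with such counts for CDK6 and HIPK2 were not computed. SMURF1, a ubiquitin ligase that targets RUNX2, had -0.47 in its brightest probe set. Its others had -0.13 and -0.02, the last with a sign that depended on the scaling.

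By brightest probe set, the list of partner and antagonist transcription factors was the one with genes past 2-fold. Of 21 genes, 15 were measured. Of these, 1 was past 2-fold upwards and 1 downwards, beside 1.42% and 1.47% of all 12729 measured genes. The median was 0.21, beside -0.06 over all measured genes. In other lists, single probe sets of CCND1, YAP1 and SIN3A also passed 2-fold. JUN had 0.42 in its brightest probe set and 1.23, 0.61 and 0.57 in its others. FOS, a subunit of AP-1, was at 2822 on the RUNX2 vector array and 1316 on the empty vector array, 2.14-fold higher. GATA3, a factor of T cells and stratified epithelium, was at 619 on the RUNX2 vector array and 1261 on the empty vector array, 2.04-fold lower, with -0.96 and -1.04 in its other probe sets. That call lay at the threshold and was lost on the deposited scale, with equal medians, and when an offset replaced the floor. TWIST1, which blocks RUNX2 binding to DNA in mouse bone, had -0.81, and MSX2, a homeobox factor of skull bone, had 0.76 in its brightest probe set and 0.24 in the other.

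Both lists built around the co-repressors had medians below 0, as had all measured genes (-0.06), with 0 genes past 2-fold. For class IIa deacetylases and the MEF2 factors they bind, the median of 6 measured genes was -0.28, with MEF2C at -0.58, MEF2A at 0.57, HDAC9 at -0.50 and HDAC5 at -0.34. Other probe sets of MEF2A had 0.55, 0.20 and -0.41, and those of MEF2C and HDAC5 had -0.26 and -0.55. For E proteins and other partners of the ETO family, the median of 8 measured genes of 10 was -0.17. This median lies midway between TAL1, at -0.11, and GFI1B, at a bound of -0.24. GFI1B was at 42.6 on the RUNX2 vector array, below the floor, and at 61.4 on the empty vector array. The median of this list therefore rests in part on a bound. With the mean over probe sets it was -0.045, beside -0.044 over all measured genes, and the class IIa and MEF2 median was -0.21. TCF12, an E protein, had -0.57 in its brightest probe set but 0.27, 0.15 and a bound of 0.31 in others. ZBTB33, which binds methylated DNA, had -0.49, LDB1, a bridging factor, had 0.36 and 0.39 in its 2 probe sets, and the repressor GFI1 had -0.35.

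**Figure D4:**
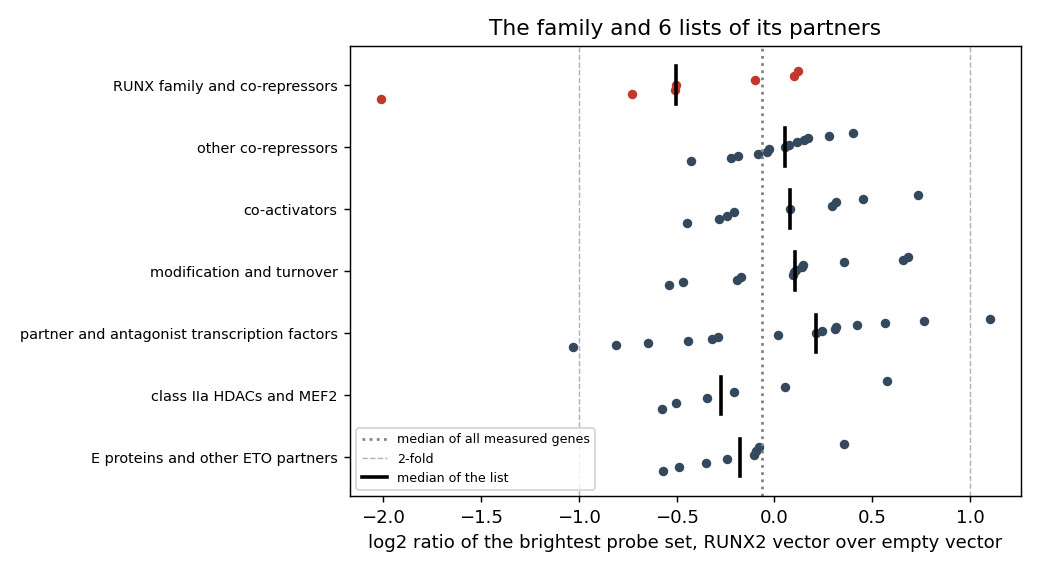
Log2 ratio of RUNX2 vector over empty vector for each measured gene (points) in the family and 6 partner lists (rows), with bars at list medians, a dotted line at the median of all genes (-0.06) and dashed lines at 2-fold. RUNX2, plotted at -2.01, FOS and GATA3 lie beyond the dashed lines.

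RUNX1, RUNX3, RUNX1T1 and CBFA2T3 are also expressed in blood cells, so markers of other cell types were read on both arrays. Of 9 leukocyte markers, 8 had their own probe set and 4 were measured. The summed level of the 8 was 1352 on the RUNX2 vector array and 1081 on the empty vector array, most of it from LCP1. The other 3 measured were CD79A, at 78.5 on the RUNX2 vector array and 85.6 on the empty vector array, and, each above the floor on 1 array, CORO1A and ITGAM. The remaining 4, PTPRC, CD3E, CD14 and SPI1, were below the floor on both. All 5 osteoblast markers with a probe set of their own were below the floor. BGLAP had none of its own and was not read. Of 7 fibroblast markers, COL1A1 was measured, and THY1 was above the floor on the empty vector array alone. COL1A2, COL3A1, DCN, LUM and PDGFRB were below the floor on both. The summed level of all 7 was 1745 on the RUNX2 vector array and 2159 on the empty vector array. Most of it came from COL1A1, at 1553 on the RUNX2 vector array and 1937 on the empty vector array. All 5 squamous markers with a probe set of their own, KRT5, KRT14, DSG3, CDH1 and SFN, were far above the floor. Their summed level was 34248 on the RUNX2 vector array and 25506 on the empty vector array. KRT6A, KRT17 and TP63 had none of their own and were not read. The basal keratin KRT14 was past 2-fold higher, at 1579 on the RUNX2 vector array and 586 on the empty vector array (log2 ratio 1.43), KRT5 had 0.51, SFN 0.47, CDH1 0.01 and DSG3 -0.08. The part of these markers in the results above was not tested. In such cell populations, fewer cells that express a gene and less RNA per cell cannot be told apart.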

How the data were processed

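Biotin-labelled cRNA was hybridised to 1 array per group, per the labels' protocols. Linear intensities of 54675 probe sets, 1 value for each array, were deposited by the authors. MAS5 is named without version or scaling target, per the submitters' processing notes. Whether the intensities are plain MAS5 signals is not settled, since 1447 probe sets had equal values on both arrays. Genome build and detection calls are not given in the sources used here.

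Here, 62 control probe sets were left out and the RUNX2 vector array was scaled by a factor of 0.966 so that the 2% trimmed means matched (206 on the RUNX2 vector array and 199 on the empty vector array before scaling). Floors, bounds and the probe set that stands for a gene are defined beside the results. Names came from the platform annotation (41091 probe sets with 1 symbol, 1801 with several, 11721 with none), with 41037 symbols looked up by Entrez ID in RefSeq for GRCh38.p14. Named genes were the 10 members with all probe sets, and per partner list up to 4 measured genes with the widest ratio plus any past 2-fold, by brightest probe set. SIN3A, JUN, GFI1B and TAL1 were named outside this rule, after their values were seen. The neighbouring transcripts RUNX1-IT1 and HDAC4-AS1 were also named outside it. A further neighbour read with them, TLE1-DT, was below the floor, at 15.4 on the RUNX2 vector array and 15.9 on the empty vector array. No gene was named for a pattern like a member's, since with 2 arrays a pattern is a single ratio. The members and lists were chosen with earlier results of these data known. Groups followed the sample titles. With 1 array per group no test was made, differences were counted at 2-fold, and depth does not apply to arrays. Alternatives were 4 other scalings, 4 other treatments of low values, 2 other ways to represent a gene, and thresholds of 1.5-fold and 4-fold. Python 3.11.15, pandas 2.3.3, numpy 2.4.6, scipy 1.17.1 and statsmodels 0.14.6 were used. The calculation was run on simulated arrays in which genes above both floors were raised 4-fold. That run did not cover smaller differences or bounds.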

Additional observations from a re-analysis of the deposited data

How the results depend on the processing

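Of 290 values under alternatives, for 28 results, 270 stayed within the spread between probe sets (SD 0.293) or, for counts, within 1.5 times. Of these, 4 values near 0 changed sign: with the mean over probe sets, CBFB had 0.15, TLE1 -0.09 and HDAC4 -0.09 (against -0.10, 0.12 and 0.10), and without _x_at and _s_at probe sets the co-activator median was -0.06 (against 0.08). Among values past 2-fold, RUNX2 reversed: its log2 ratio was 0.62 as the mean over probe sets, 2.06 with 216994_s_at and 1.79 with 221282_x_at, against -2.01 with 232231_at. With 216994_s_at or 221282_x_at in its place (added after seeing the data), 1 of the 10 genes was at least 2-fold higher, 0 were lower and the median was -0.10. With the mean over probe sets, 0 were at least 2-fold lower, the median was -0.095 and RUNX3 had -0.42. Without RUNX2 (also added), 0 were lower, and at 1.5-fold 2 were lower, RUNX2 and RUNX3. With a floor raised to the 75th percentile, that median was -0.10 and TLE3 had -0.0050, since 5 of the 10 genes were still measured and low values were raised. RUNX3 and HDAC4 were no longer measured under that floor. For partner transcription factors, 0 genes were at least 2-fold lower on the deposited scale, with equal medians and with an offset, and the median was -0.083 with no floor. Over all genes, at least 2-fold higher and lower counts were 181 and 187, but 112 and 79 with the floor at the 75th percentile and 114 and 91 with an offset. Low signals limit RUNX1, HDAC4, TLE3 and RUNX3, most of all the RUNX3 probe set 234928_x_at. No paired analysis was possible because each group held 1 array.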
